A study of Mus musculus with 60 samples.

Results

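Mitochondrial ribosomal protein genes (Mrpl and Mrps symbols) were followed in mouse hippocampus during melanoma-induced cachexia, the wasting syndrome that accompanies some cancers. They were taken as the rows of the expression table whose symbol starts with Mrpl or Mrps and a number, without a pseudogene suffix, and whose mean over the 60 libraries was at least 1 TPM (a transcript level scaled for gene length and sequencing depth). Of 82 rows with such symbols, 5 pseudogene rows were listed at 0 and 77 genes remained as members, against 15608 genes tested and 47643 rows in the whole table. No member lay near the limit, since the lowest mean was 6.42 TPM. Of the 77, 50 encode proteins of the large subunit, 26 proteins of the small subunit, and 1, Mrps36, is named as a small subunit protein but is now known as a component of the 2-oxoglutarate dehydrogenase complex.

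Female mice aged 2 months were injected with melanoma cells of a cachectic kind (CAC) or of a non-cachectic kind (NCAC), or were mock injected (Con), and hippocampus was sampled 2, 4, 6 and 8 weeks later. CAC had 4, 5, 5 and 7 libraries at the successive times, NCAC had 5, 5, 4 and 5, and Con had 5 at each time. The sample labels give the strain as C57BL6/J and the series text gives NCI Ath/nude, so the strain and the immune status of the hosts are not settled by the labels. The melanoma lines are not named beyond cachectic and non-cachectic, and no label gives the cell dose or the weight loss of a mouse. The extraction text refers to Lewis lung carcinoma (LLC) cells, which match no group here. The labels call the replicates biological but name no animals, and the p-values therefore rest on the spread among these libraries, which may be technical in part.

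The mitochondrial ribosome translates the few messages of the mitochondrial genome, all of which encode subunits of the respiratory chain and the ATP synthase. Its RNAs come from the mitochondrial genome, while all its proteins are encoded in the nucleus, made in the cytosol and imported. Some of these proteins descend from bacterial ribosomal proteins and others have no bacterial homolog; 48 members are of the first kind and 28 of the second. Neurons depend on oxidative phosphorylation, and inherited defects of mitochondrial ribosomal proteins cause disease of the brain, heart and muscle.

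Promoter sequence is shown first, since genes for mitochondrial ribosomal proteins are known for CpG-rich promoters with sites for nuclear respiratory factor NRF1 and for ETS-family factors such as GABPA (NRF2). The 250 bases before the RefSeq start site (GRCm38.p6) were found for 68 of the 77 members; the other 9 were not matched. The NRF1 motif CGCATGCG, which is its own reverse complement, stood in 7 of the 68 (10.3%), against 2.98% of the promoters of 11468 tested genes and 1.58% of all 27025 promoters. The ETS motif CCGGAAG, or CTTCCGG on the other strand, stood in 15 of the 68 (22.1%), against 12.3% of tested genes and 7.07% of all promoters. The YY1 motif ATGGCGGC, or GCCGCCAT on the other strand, stood in 1 (1.47%), Mrps11, against 1.75% of tested genes and 1.03% of all promoters. Among the members, 21 held at least 1 of the 3 motifs and 2 (Mrpl17 and Mrpl22) held both the NRF1 and the ETS motif. Median GC content was 58.4% in the members' promoters, 60% in those of tested genes and 52% in all. The motif matches are descriptions of letters and do not show binding.

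Promoters of 4 members that recur in the results are printed 5′ to 3′ on the gene's strand, with any of the 3 motifs in capitals. Mrps18b and Mrps31 were higher in CAC, Mrps36 was lower in CAC, and Mrpl52 varied most between libraries. The windows lie at chr17:35916441-35916690 on the minus strand for Mrps18b, chr8:22411090-22411339 on the plus strand for Mrps31, chr13:100744660-100744909 on the minus strand for Mrps36 and chr14:54426659-54426908 on the plus strand for Mrpl52.
Mrps18b: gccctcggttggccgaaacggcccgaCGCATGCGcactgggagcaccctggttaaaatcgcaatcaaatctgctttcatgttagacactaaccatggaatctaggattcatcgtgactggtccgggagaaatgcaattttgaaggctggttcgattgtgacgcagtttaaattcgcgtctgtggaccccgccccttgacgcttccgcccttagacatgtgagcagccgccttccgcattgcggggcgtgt
Mrps31: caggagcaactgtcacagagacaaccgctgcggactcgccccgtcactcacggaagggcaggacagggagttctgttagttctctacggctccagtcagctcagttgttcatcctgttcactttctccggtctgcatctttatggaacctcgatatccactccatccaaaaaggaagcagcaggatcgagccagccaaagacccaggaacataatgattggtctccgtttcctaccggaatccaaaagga
Mrps36: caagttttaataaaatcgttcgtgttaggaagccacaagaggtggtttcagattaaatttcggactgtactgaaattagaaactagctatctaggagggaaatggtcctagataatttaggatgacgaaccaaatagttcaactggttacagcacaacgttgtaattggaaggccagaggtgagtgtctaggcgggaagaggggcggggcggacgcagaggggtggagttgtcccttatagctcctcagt
Mrpl52: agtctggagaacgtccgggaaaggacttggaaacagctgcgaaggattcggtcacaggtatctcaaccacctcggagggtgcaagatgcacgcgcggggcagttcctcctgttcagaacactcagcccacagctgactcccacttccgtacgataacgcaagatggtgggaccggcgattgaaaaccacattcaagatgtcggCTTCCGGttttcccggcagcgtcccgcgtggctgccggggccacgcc
The capitals mark an NRF1 motif 224 to 217 bases before the start of Mrps18b and an ETS motif on the other strand 47 to 41 bases before the start of Mrpl52. The promoters of Mrps31 and Mrps36 held none of the 3 motifs in these windows.

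All 77 members were detected in all 60 libraries, and their mean levels spanned 6.42 to 107 TPM with a median of 31.5 TPM. The highest mean levels were those of Mrpl42 (107 TPM), Mrpl41 (105 TPM), Mrpl10 (90.8 TPM), Mrpl27 (90.8 TPM) and Mrps33 (85.9 TPM). Mrpl10 is the base of the stalk to which Mrpl12 binds, and Mrpl27 lies near the peptidyl transferase centre. Mrpl42 ranged over 84.0 to 130 TPM and Mrpl10 over 80.7 to 109 TPM, so neighbours in this order overlapped. The lowest mean levels were those of Mrps35 (6.42 TPM), Mrps10 (6.69 TPM), Mrpl33 (7.88 TPM), Mrpl13 (8.68 TPM) and Mrps22 (11.9 TPM). This order depends on the gene length used in the TPM values. Mrpl42 had a median of 725 reads over a length of 666 bases, and Mrpl13 had 714.5 reads over 7936 bases. Mrps35 ranged over 5.05 to 8.90 TPM, so it overlapped with Mrps10 too.

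**Figure D1:**
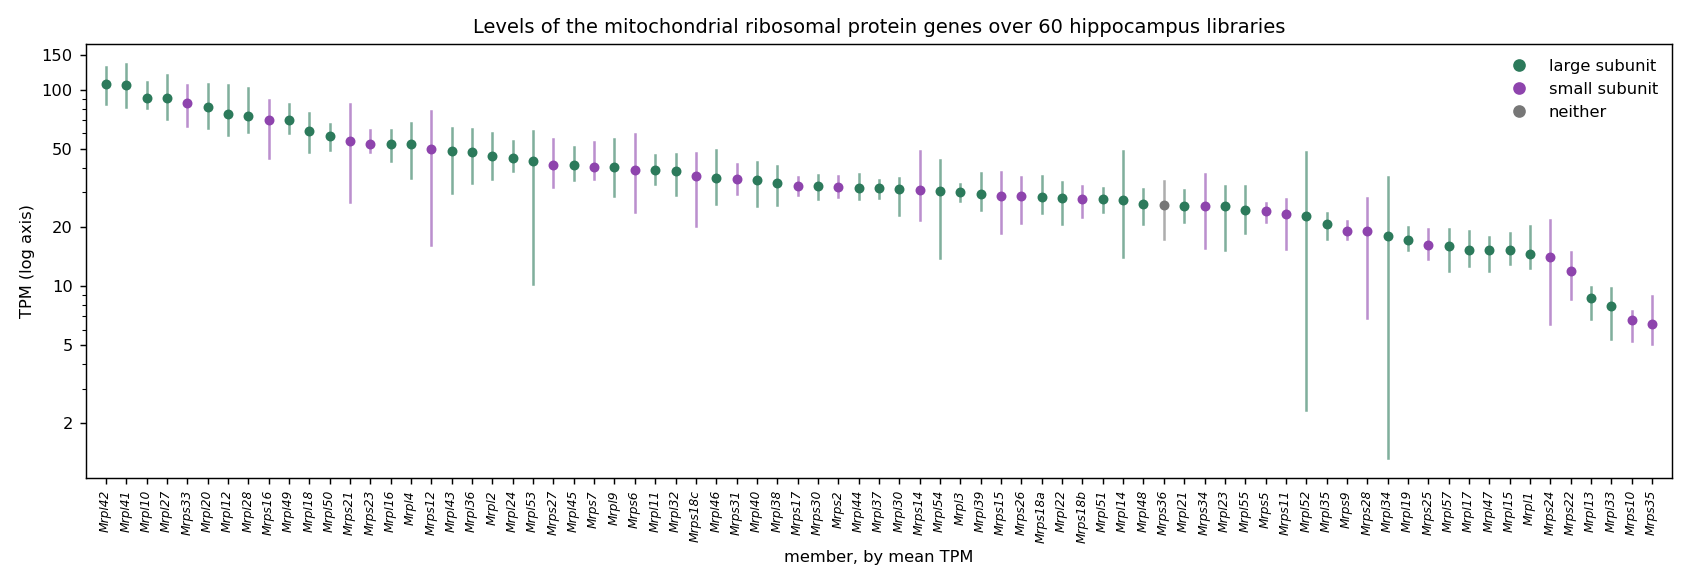
Mean TPM of each of the 77 members over the 60 libraries (points) with the lowest and highest library (lines), ordered by mean, on a log axis; colours give the subunit. Means run between 107 TPM for Mrpl42 and 6.42 TPM for Mrps35, and the longest lines are those of Mrpl52 and Mrpl34.

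Most members varied little between libraries of a group. Over all tested genes, a set not matched to the members in level, the SD of log2(TPM + 0.5) within groups had a median of 0.153. Over the members its median was 0.125. It was smallest for Mrps5 (0.055), Mrps17 (0.059) and Mrpl3 (0.061), which descend from bacterial proteins S5, S17 and L3, and Mrps5 kept within 21.1 to 26.4 TPM in all libraries. It was largest for Mrpl52 (0.619), Mrpl34 (0.584) and Mrpl14 (0.355). Mrpl52 ranged over 2.34 to 48.0 TPM and Mrpl34 over 1.33 to 36.1 TPM. Both are short genes with few reads: the TPM values came from at least 17 reads for Mrpl52 and at least 8 reads for Mrpl34 in a library.

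Spread went with gene length. The length used in the TPM values ran between 566 and 8631 bases, and the median SD was 0.163 in the 26 shortest members (up to 1398 bases), 0.117 in the 25 of middle length (1415 to 2596 bases) and 0.094 in the 26 longest (at least 2703 bases). Over the 77 genes, Spearman's rho between length and SD was -0.59, a description across genes that share the same libraries. In each library the level of all genes also leaned with length. The slope, in log2 per doubling of length relative to the mean of all libraries, was fitted together with GC content. It was 0.033 to 0.146 in CAC at 2 weeks, -0.021 to 0.143 in NCAC at 2 weeks and -0.100 to 0.021 in Con at 2 weeks. At 8 weeks it was -0.054 to 0.032 in CAC, -0.067 to -0.048 in NCAC and -0.104 to -0.090 in Con. The CAC and Con ranges of this slope did not overlap at 2 or at 8 weeks. Counts of called members after a correction for GC content and length are given beside those counts that it moved by over 1.5 times.

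Whole-series facts that touch the results are few. Libraries held 32388193 to 42046753 reads in genes, as recovered from the TPM steps. Markers of hippocampal pyramidal cells, dentate granule cells, astrocytes, oligodendrocytes, microglia and endothelium were above 0 in every library. The summed level of 6 striatal markers reached 931 TPM in CAC at 2 weeks, 1185 TPM in CAC at 4 weeks and 1194 TPM in Con at 4 weeks, against a median of 70.9 TPM over all libraries, and that of 5 blood markers reached 7921 TPM in CAC at 8 weeks, against a median of 756 TPM. Counts were therefore also taken without the 10 libraries rich in either. The summed level of 5 choroid plexus markers ran between 41.4 and 10825 TPM, with a median of 2723 TPM. At 4 weeks it was 184 to 1644 TPM in CAC, 159 to 8976 TPM in NCAC and 2534 to 4994 TPM in Con, so CAC and Con did not overlap there. With this level as a covariate, an alternative chosen after seeing the data, the counts of called members between arms or times changed in 3 contrasts: 11 were lower in CAC than in Con at 2 weeks, and 15 in NCAC and 1 in Con were higher at 8 than at 2 weeks. No pair of libraries correlated above 0.993, so none was treated as a duplicate. In hippocampus tissue, fewer cells of a type and less RNA per cell cannot be told apart.

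The members were first compared among the 12 groups at once. In a moderated F test (limma on log2(TPM + 0.5), Benjamini-Hochberg adjustment over all tested genes, threshold 0.05), 39 of the 77 members differed among groups, against 47.5% of all tested genes. The smallest adjusted p-values were those of Mrps34 (8.19e-06), Mrpl52 (5.29e-05), Mrps21 (8.16e-05), Mrps24 (8.4e-05), Mrpl57 (0.000127) and Mrpl34 (0.000192). The members' share lies close to the share of all genes.

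The contrast with most replication sets CAC against each comparison arm over the mean of the 4 times. Here most members did not pass the threshold, 13 were lower and 2 were higher in CAC than in Con, and 10 were lower and 3 were higher in CAC than in NCAC. Of all tested genes, 4.95% were lower and 14.9% higher in CAC than in Con, and 4.11% lower and 11.6% higher in CAC than in NCAC. The median difference of the members was -0.036 on the log2 scale against Con (51 of 77 below 0) and -0.048 against NCAC (57 below 0), beside medians of 0.026 and 0.023 over all tested genes. Both contrasts use the same CAC libraries, so they are not independent of each other. With median-of-ratios scaling the split was 19 lower and 0 higher against Con, and 17 lower and 1 higher against NCAC; with voom on the recovered reads it was 18 lower and 0 higher, and 16 lower and 1 higher. After the correction for GC content and length it was 12 lower and 4 higher in both. Without the 10 libraries rich in striatal or blood markers, the count against Con was 7 (6 lower, 1 higher).

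The member with the smallest p was Mrps25 (ENSMUSG00000014551.8, chr6:92169525-92184033, minus strand, GRCm38), a small subunit protein without a bacterial homolog. At 2 weeks it had 14.1, 14.97, 15.1 and 16.6 TPM in CAC, 16.2, 16.8, 16.8, 17.2 and 17.2 TPM in NCAC, and 15.5, 16.8, 16.9, 17.2 and 18.3 TPM in Con. At 4 weeks it had 13.6, 13.8, 15.02, 15.5 and 15.9 TPM in CAC, 15.1, 15.6, 15.9, 17.0 and 17.2 TPM in NCAC, and 15.4, 16.0, 16.8, 17.4 and 19.0 TPM in Con. At both times the CAC libraries were low and overlapped with both other arms. At 6 weeks it had 13.9, 13.9, 14.9, 15.4 and 15.7 TPM in CAC, 15.5, 16.8, 16.8 and 18.6 TPM in NCAC, and 15.5, 16.7, 16.9, 17.8 and 19.5 TPM in Con. At 8 weeks it had 13.7 to 16.5 TPM with a median of 15.3 TPM in CAC, 15.9, 16.4, 16.7, 17.0 and 17.6 TPM in NCAC, and 15.6, 15.6, 15.8, 16.2 and 18.2 TPM in Con. The ranges overlapped at every time, and the CAC mean was the lowest of the 3 arms at each. Averaged over the times, Mrps25 had 14.9 TPM in CAC, 16.7 TPM in NCAC and 16.9 TPM in Con. It was lower in CAC, with a log2 difference of -0.17 ± 0.03 against Con (SE; adjusted p = 0.000146) and of -0.15 ± 0.03 against NCAC (adjusted p = 0.000634), and both calls held under all 12 alternatives and with each library left out. Exons of Mrps25 overlap on the opposite strand with Nr2c2 (mean 59.8 TPM), which was higher in CAC than in Con by 0.11 ± 0.03 (adjusted p = 0.0145).

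**Figure D2:**
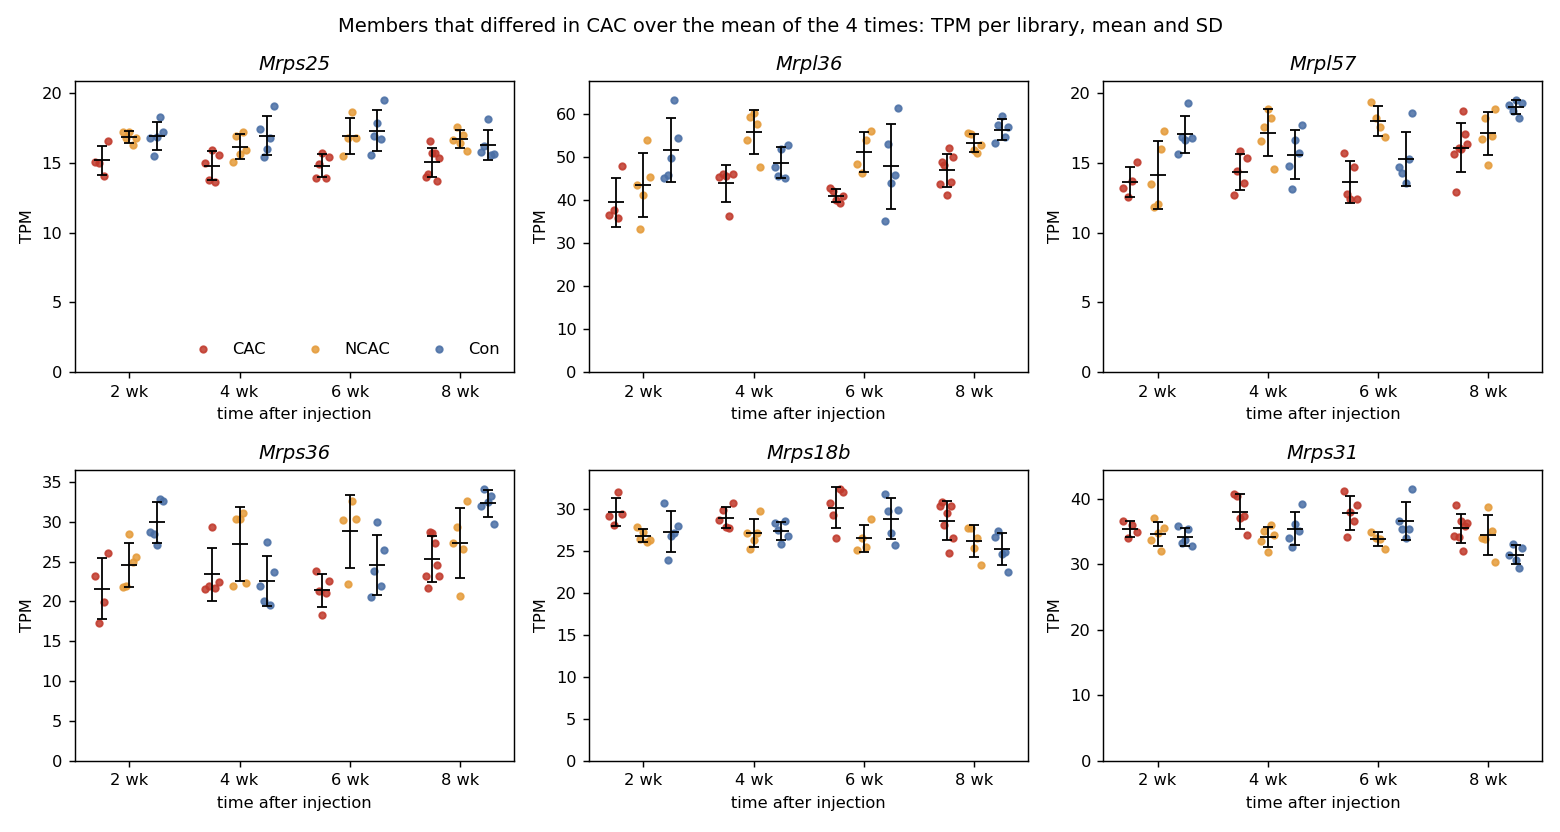
TPM in every library for 6 members past the threshold over the mean of the 4 times in both contrasts, by time and arm (points), with group mean and SD (bars), on axes that start at 0. Mrps25 averages 14.9 TPM in CAC, 16.7 TPM in NCAC and 16.9 TPM in Con, and Mrps18b averages 29.4 TPM in CAC, 26.7 TPM in NCAC and 27.2 TPM in Con.

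Mrpl36 (ENSMUSG00000021607.9, chr13:73328513-73332178, plus strand), a small zinc-binding protein of the large subunit, was lower in CAC by a wider margin. At 6 weeks it had 39.4, 39.9, 40.9, 42.1 and 42.8 TPM in CAC, 46.2, 48.4, 53.9 and 55.9 TPM in NCAC, and 35.2, 43.9, 45.7, 53.0 and 61.3 TPM in Con, so CAC and NCAC did not overlap while Con spanned both. Over the 4 times it averaged 42.8 TPM in CAC, 50.9 TPM in NCAC and 51.1 TPM in Con. The log2 difference was -0.25 ± 0.05 against Con (adjusted p = 0.000503) and -0.24 ± 0.05 against NCAC (adjusted p = 0.00103), and it was below 0 at each of the 4 times in both. Ndufs6, a complex I gene of 102 TPM that overlaps with Mrpl36 on the opposite strand, differed by -0.17 ± 0.09 against Con, which did not pass the threshold (adjusted p = 0.170).

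Mrpl57 (ENSMUSG00000021967.4, chr14:57826234-57829296, plus strand), a large subunit protein, averaged 14.4 TPM in CAC, 16.6 TPM in NCAC and 16.7 TPM in Con. It was lower in CAC, with a log2 difference of -0.20 ± 0.05 against Con (adjusted p = 0.00135) and of -0.19 ± 0.05 against NCAC (adjusted p = 0.00355). Mrps36 (ENSMUSG00000061474.11, chr13:100735955-100744659, minus strand), the 2-oxoglutarate dehydrogenase component, averaged 22.9 TPM in CAC, 27.0 TPM in NCAC and 27.3 TPM in Con. The log2 difference was -0.24 ± 0.06 against Con (adjusted p = 0.00324), with a lower mean at 3 of the 4 times, and -0.23 ± 0.06 against NCAC (adjusted p = 0.00746). The calls of Mrpl36, Mrpl57 and Mrps36 held under all 12 alternatives and with each library left out, in both contrasts.

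Members that were higher in CAC in both contrasts were Mrps18b (ENSMUSG00000024436.16, chr17:35910379-35916389, minus strand) and Mrps31 (ENSMUSG00000031533.4, chr8:22411361-22429665, plus strand). Mrps18b is one of the paralogs related to bacterial S18, with Mrps18a and Mrps18c, and Mrps31 is a small subunit protein without a bacterial homolog. At 2 weeks Mrps18b had 28.1, 29.2, 29.5 and 32.1 TPM in CAC, 26.1, 26.4, 26.4, 27.3 and 27.9 TPM in NCAC, and 23.9, 26.8, 27.2, 28.0 and 30.7 TPM in Con. There all 4 CAC libraries lay above all 5 NCAC libraries and overlapped with Con. Over the 4 times Mrps18b averaged 29.4 TPM in CAC, 26.7 TPM in NCAC and 27.2 TPM in Con. It was higher in CAC by 0.11 ± 0.03 against Con (adjusted p = 0.00963) and by 0.14 ± 0.03 against NCAC (adjusted p = 0.00268). The first call was lost under median-of-ratios scaling (adjusted p = 0.0905) and voom (adjusted p = 0.0943), and the second held under all 12 alternatives. Mrps31 averaged 36.7 TPM in CAC, 34.3 TPM in NCAC and 34.4 TPM in Con. It was higher in CAC by 0.09 ± 0.03 against Con (adjusted p = 0.0164) and by 0.10 ± 0.03 against NCAC (adjusted p = 0.0163). Each of these calls held under 9 of 12 alternatives; against Con the log2 difference was 0.06 under median-of-ratios scaling (adjusted p = 0.103).

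Other large differences against Con over the 4 times were those of 5 genes of 739 to 949 bases, Mrpl52 (-0.54 ± 0.19, adjusted p = 0.0362), Mrpl53 (-0.34 ± 0.10, adjusted p = 0.0102), Mrpl14 (-0.32 ± 0.11, adjusted p = 0.0316), Mrpl54 (-0.24 ± 0.08, adjusted p = 0.0294) and Mrps21 (-0.23 ± 0.09, adjusted p = 0.0439). Mrps21, related to bacterial S21, held its call under 7 of 12 alternatives and in 20 of 41 fits with a library left out. Mrpl14 did not pass the threshold in the F test among the 12 groups (adjusted p = 0.178). Its exons overlap on the opposite strand with Tmem63b (mean 83.6 TPM). Mrpl54 passed in the F test (adjusted p = 0.00034) but not after the correction for GC content and length (adjusted p = 0.506). Against NCAC the corresponding genes were Mrpl53 (-0.31 ± 0.10, adjusted p = 0.0279), Mrps21 (-0.26 ± 0.09, adjusted p = 0.0317) and Mrps24 (-0.25 ± 0.09, adjusted p = 0.0449). Mrpl21 averaged 24.3 TPM in CAC, 26.8 TPM in NCAC and 25.9 TPM in Con, with a difference of -0.14 ± 0.03 against NCAC (adjusted p = 0.00177). Its exons overlap on the opposite strand with Ighmbp2. Mrps5 was higher in CAC than in NCAC by 0.06 ± 0.02 (adjusted p = 0.027), a difference that 8 of 12 alternatives kept. NCAC against Con gave 0 members with limma and 0 with voom, 1 member at an unadjusted p under 0.05, and 0% of all genes called. The smallest p-values there were those of Mrps27 and Mrpl35, with differences of 0.08 and -0.05.

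**Figure D3:**
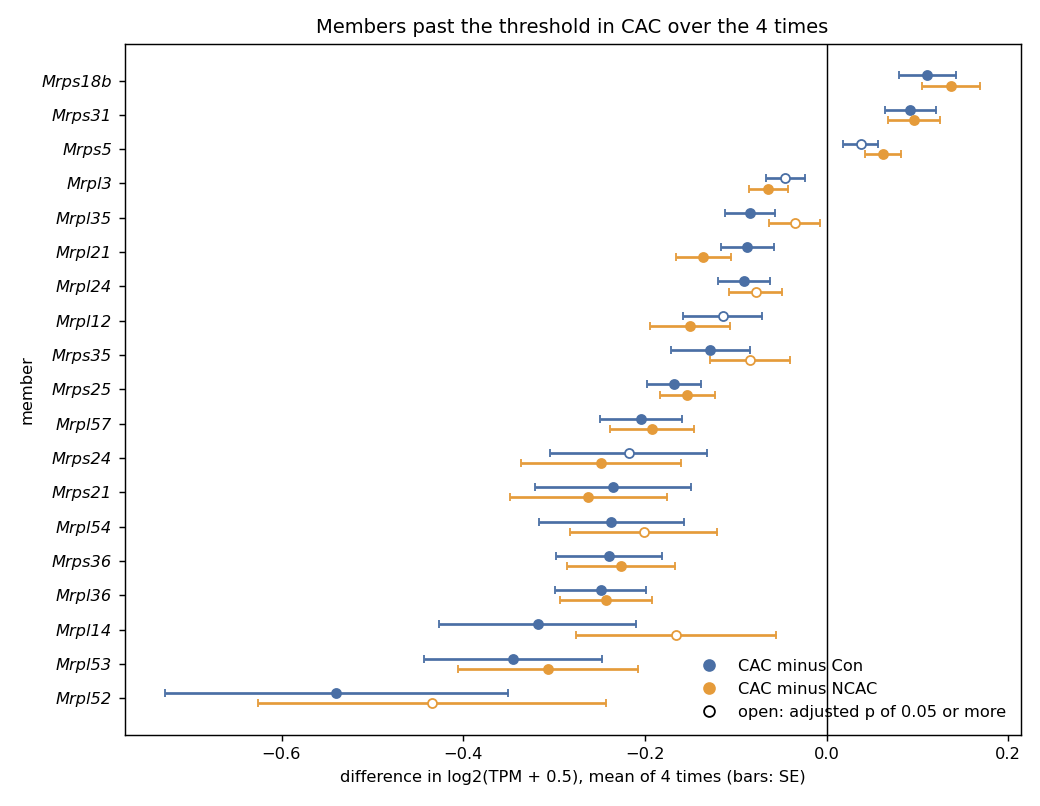
Difference in log2(TPM + 0.5) over the mean of the 4 times for every member past the threshold in at least 1 of the contrasts, CAC minus Con and CAC minus NCAC, with SE (bars); filled points have an adjusted p under 0.05. Mrps18b, Mrps31 and Mrps5 lie above 0, and the other members below it, as far as -0.54 for Mrpl52 against Con.

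At 2 weeks 13 members were lower and 0 higher in CAC than in Con, against 1.98% of all genes lower. The median difference of the members was -0.128 (58 of 77 below 0), beside 0.056 over all tested genes. Mrpl52 had 2.34, 4.58, 8.43 and 15.9 TPM in CAC and 12.5, 16.6, 17.0, 22.7 and 48.0 TPM in Con, a difference of -1.65 ± 0.40 (adjusted p = 0.026). Its ranges overlapped through 1 CAC library. Mrps21 had 30.8, 38.1, 43.8 and 44.4 TPM in CAC and 52.4, 57.9, 66.3, 69.6 and 79.0 TPM in Con, so the arms did not overlap; the difference was -0.72 ± 0.18 (adjusted p = 0.0286). Mrpl53 averaged 25.4 ± 14.0 TPM in CAC (SD, n = 4) and 42.6 ± 12.2 TPM in Con (SD, n = 5), a difference of -0.87 ± 0.21 (adjusted p = 0.0252). Mrps12, the counterpart of the bacterial decoding-site protein S12, differed by -0.72 ± 0.22 (adjusted p = 0.0483), Mrps28 by -0.65 ± 0.19 (adjusted p = 0.0462) and Mrps18c by -0.52 ± 0.15 (adjusted p = 0.045). The remaining 7 were Mrps36, Mrps34, Mrpl36, Mrpl33, Mrpl32, Mrps33 and Mrpl42.

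These 2-week calls lay mostly among short genes. Of the 13, 10 were among the 26 shortest members, where the median difference was -0.307 (25 of 26 below 0), beside -0.073 in the members of middle length and -0.040 in the longest. Spearman's rho between length and difference was 0.53 over the 77 genes. After the correction for GC content and length 2 members were called, Mrpl52 (-1.31, adjusted p = 0.0374) and Mrpl33 (-0.47, adjusted p = 0.0235), a large subunit protein related to bacterial L33. No member was called without the libraries rich in striatal or blood markers, with only the 2 groups fitted, or without CAC replicate 1, CAC replicate 2, Con replicate 4 or Con replicate 5. The count was 7 without CAC replicate 4, 21 without CAC replicate 5 and 8 without Con replicate 3.

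**Figure D4:**
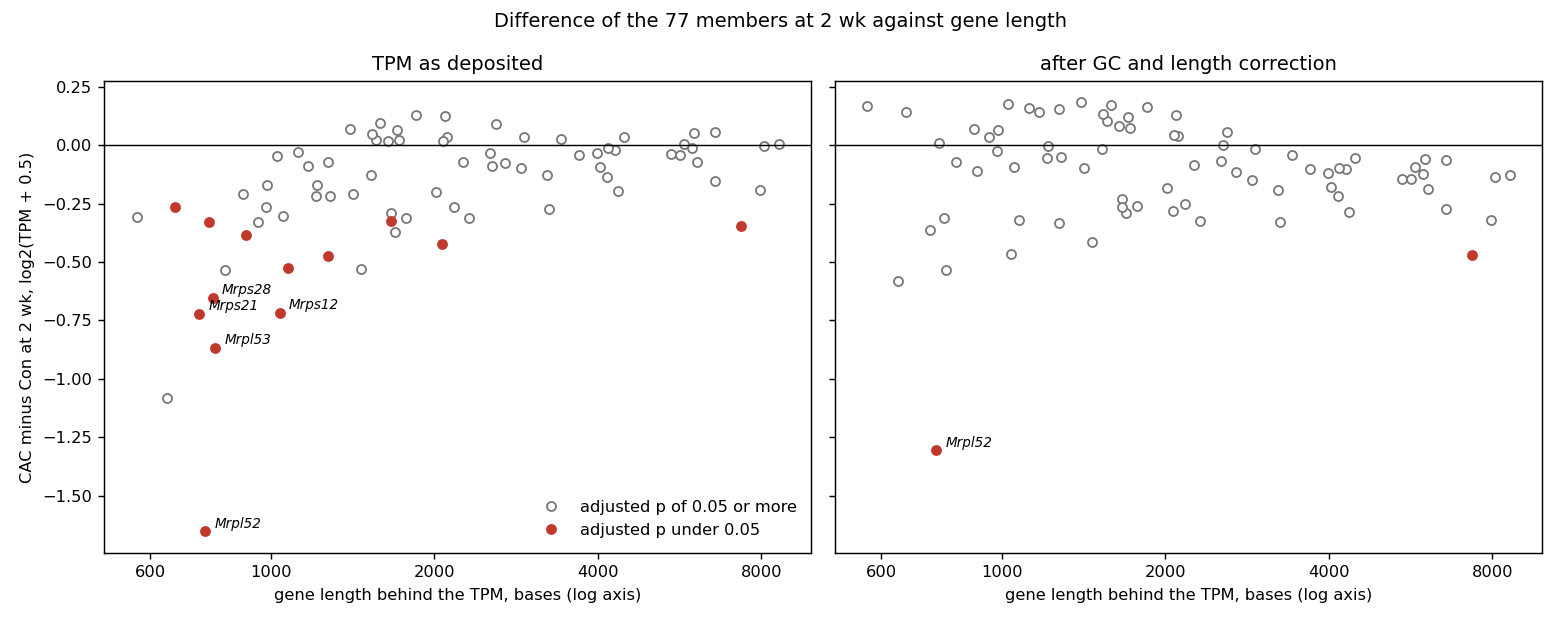
Difference CAC minus Con at 2 weeks in log2(TPM + 0.5) for the 77 members against the gene length behind the TPM (log axis, bases), as deposited (left) and after correction for GC content and length (right); filled points have an adjusted p under 0.05. Of the 13 filled points on the left, 10 are among the 26 shortest members, and 2 points are filled on the right.

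Against NCAC at 2 weeks no member was called with limma or voom, 7 had an unadjusted p under 0.05, and 0% of all genes were called. Mrpl21 (-0.15 ± 0.06) and Mrps25 (-0.15) had the smallest p-values, with adjusted p = 0.680 for both. NCAC against Con at 2 weeks gave 0 members with either tool, 14 at an unadjusted p under 0.05, and 0% of all genes. There Mrps21 averaged 44.2 ± 10.9 TPM in NCAC and 65.0 ± 10.4 TPM in Con (SD, n = 5 each; difference -0.58 ± 0.17, adjusted p = 0.430).

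At 4 weeks no member passed the threshold in any of the 3 contrasts with limma or voom. The shares of all genes called were 0.801% for CAC against Con, 0.0128% for CAC against NCAC and 0% for NCAC against Con; 17, 8 and 17 members had an unadjusted p under 0.05. Mrps18c averaged 39.2 ± 4.60 TPM in CAC and 27.3 ± 4.70 TPM in Con (SD, n = 5 each; difference 0.52 ± 0.15, adjusted p = 0.0563), the opposite sign to its difference at 2 weeks. Mrpl30 differed by 0.23 ± 0.07 between CAC and Con (adjusted p = 0.0611). Mrpl36 averaged 43.8 ± 4.26 TPM in CAC and 55.7 ± 5.07 TPM in NCAC (SD, n = 5 each; difference -0.34 ± 0.10, adjusted p = 0.146). After the correction for GC content and length 3 members were called in CAC against Con, all higher. With a library left out, 5 were called without CAC replicate 5, 3 without Con replicate 3 and 1 without Con replicate 2. At this time 3 of 5 CAC libraries, 1 of 5 NCAC libraries and 1 of 5 Con libraries were rich in striatal or blood markers.

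At 6 weeks the 1 call was Mrpl57, lower in CAC than in NCAC, against 0.442% of all genes lower. It had 12.4, 12.4, 12.8, 14.7 and 15.7 TPM in CAC and 16.8, 17.6, 18.2 and 19.4 TPM in NCAC, so the arms did not overlap; Con had 13.6, 14.3, 14.7, 15.2 and 18.6 TPM and overlapped with both. The difference from NCAC was -0.40 ± 0.10 (adjusted p = 0.0251). No member was called without CAC replicate 2 or 5, without NCAC replicate 1, 3 or 4, or with only the 2 groups fitted, and 3 were called without NCAC replicate 2. After the correction for GC content and length 4 members were called (1 higher, 3 lower), and without the libraries rich in striatal or blood markers 3 were called, all lower; the call of Mrpl57 held in both. CAC against Con gave 0 members with limma and voom, 6 at an unadjusted p under 0.05 and 0.25% of all genes, with 1 member called without Con replicate 1. NCAC against Con gave 0 members with either tool, 3 at an unadjusted p under 0.05 and 0% of all genes. Mrps25 averaged 14.8 ± 0.836 TPM in CAC and 17.3 ± 1.48 TPM in Con at this time (SD, n = 5 each; difference -0.22 ± 0.06, adjusted p = 0.0900).

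At 8 weeks 3 members were lower and 3 higher in CAC than in Con, against 3.2% of all genes lower and 11.3% higher. The count of lower members lay near the share of all genes. The median difference of the members was -0.027 (48 of 77 below 0), beside 0.048 over all tested genes. Mrps36 had 21.6 to 28.7 TPM with a median of 24.6 TPM in CAC and 29.7, 31.9, 32.5, 33.2 and 34.1 TPM in Con, a difference of -0.35 ± 0.11 (adjusted p = 0.0248). Mrpl36 had 41.2 to 52.0 TPM with a median of 48.0 TPM in CAC and 53.2, 54.7, 56.9, 57.3 and 59.4 TPM in Con, a difference of -0.27 ± 0.09 (adjusted p = 0.044). For both genes all 7 CAC libraries lay below all 5 Con libraries. The share of all genes separated in this way is not given. The Con libraries lay close together at this time. The SD of the members' mean log2 level between libraries was 0.008 in Con and 0.037 in CAC. Mrpl57 averaged 16.1 ± 1.74 TPM in CAC (SD, n = 7) and 19.0 ± 0.499 TPM in Con (SD, n = 5), a difference of -0.24 ± 0.08 (adjusted p = 0.0473).

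The 3 higher members at 8 weeks were Mrps18b, Mrps31 and Mrpl50. Mrps18b averaged 28.7 ± 2.29 TPM in CAC and 25.2 ± 1.91 TPM in Con (difference 0.18 ± 0.06, adjusted p = 0.0313). Mrps31 averaged 35.5 ± 2.22 TPM in CAC and 31.4 ± 1.46 TPM in Con (difference 0.17 ± 0.05, adjusted p = 0.0224). Mrpl50, a large subunit protein, averaged 58.3 ± 4.85 TPM in CAC and 51.7 ± 1.46 TPM in Con (difference 0.17 ± 0.06, adjusted p = 0.0381; SD, n = 7 and 5 for all 3 genes). None of these 3 was called under median-of-ratios scaling (0 higher and 6 lower) or voom (0 higher and 9 lower). The total was 13 with only the 2 groups fitted (2 higher, 11 lower) and 10 after the correction for GC content and length (5 higher, 5 lower). It was 0 without CAC replicate 2, Con replicate 3 or Con replicate 4, 2 without CAC replicate 4, CAC replicate 6 or Con replicate 5, and 3 without CAC replicate 1 or Con replicate 1. With the replicate number as a block the total was 0.

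Against NCAC at 8 weeks no member was called in CAC with limma or voom, 7 had an unadjusted p under 0.05, and 1.83% of all genes were called. Mrpl21 (-0.16) and Mrps25 (-0.15) had the smallest p-values, with adjusted p = 0.115 and 0.142. NCAC against Con at 8 weeks gave 0 members with either tool, 6 at an unadjusted p under 0.05 and 0% of all genes.

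More members passed the threshold with time within CAC than in any contrast between arms. Within CAC, 31 members were higher and 1 lower at 8 weeks than at 2 weeks, against 10.8% of all genes higher and 20.1% lower. Within NCAC 16 were higher and 0 lower, against 4.68% of all genes higher. Within Con 2 were higher and 0 lower, against 1.67% of all genes higher. The members' median change was 0.158 in CAC, 0.109 in NCAC and 0.040 in Con, beside -0.060, -0.062 and -0.056 over all tested genes. Time after injection and age of the mice run together here and cannot be told apart.

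Mrps34 (chr17:24895116-24897502, plus strand), a small subunit protein without a bacterial homolog, had the smallest p in CAC. It had 25.4 to 32.4 TPM with a median of 30.9 TPM at 8 weeks and 15.8, 17.5, 19.2 and 23.0 TPM at 2 weeks in CAC, with no overlap, a difference of 0.65 ± 0.11 (adjusted p = 6.03e-05). In NCAC the difference was 0.33 ± 0.12 (adjusted p = 0.0456). In Con it averaged 34.2 ± 1.88 TPM at 8 weeks and 25.3 ± 3.26 TPM at 2 weeks (SD, n = 5 each), a difference of 0.43 ± 0.12 (adjusted p = 0.0162). It shares exon sequence on the same strand with Nme3, which differed by 0.94 between 8 and 2 weeks in CAC. On the opposite strand it overlaps with Mapk8ip3 (mean 131 TPM), which differed by -0.09 there (adjusted p = 0.298).

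Mrpl52 had 15.7 to 41.2 TPM with a median of 29.7 TPM at 8 weeks and 2.34, 4.58, 8.43 and 15.9 TPM at 2 weeks in CAC, a difference of 1.93 ± 0.37 (adjusted p = 0.000194). In NCAC it averaged 30.2 ± 4.60 TPM at 8 weeks and 12.04 ± 6.54 TPM at 2 weeks (difference 1.54 ± 0.38, adjusted p = 0.0105), and in Con the difference of 1.05 ± 0.38 did not pass the threshold (adjusted p = 0.0625). Mrpl34, related to bacterial L34, averaged 21.2 ± 7.19 TPM at 8 weeks and 7.98 ± 4.86 TPM at 2 weeks in CAC (difference 1.47 ± 0.35, adjusted p = 0.00171), and 24.5 ± 3.15 TPM at 8 weeks and 9.11 ± 4.66 TPM at 2 weeks in NCAC (difference 1.65 ± 0.36, adjusted p = 0.0081). In CAC the next largest rises were those of Mrpl53 (1.01 ± 0.19), Mrps12 (0.98 ± 0.20), Mrps28 (0.89 ± 0.18) and Mrpl54 (0.69 ± 0.16), all past the threshold. Mrpl54 did not overlap, with 30.08 to 35.5 TPM at 8 weeks and 13.9, 18.1, 23.2 and 30.06 TPM at 2 weeks. In NCAC the next largest were Mrps12 (0.80), Mrps28 (0.65), Mrps21 (0.64) and Mrpl53 (0.60). In Con the other call was Mrpl4, which averaged 62.9 ± 3.21 TPM at 8 weeks and 50.8 ± 6.23 TPM at 2 weeks (difference 0.31 ± 0.11, adjusted p = 0.0488). The 1 lower member was Mrps17 in CAC, with 30.6 ± 1.26 TPM at 8 weeks (SD, n = 7) and 34.0 ± 1.11 TPM at 2 weeks (SD, n = 4), a difference of -0.15 ± 0.04 (adjusted p = 0.00467) that became 0.02 (adjusted p = 0.769) after the correction for GC content and length.

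The direct test of whether the change with time differed between arms gave 0 members with limma and voom for CAC against Con (11 at an unadjusted p under 0.05; 0.00641% of all genes called) and 0 for CAC against NCAC (2 at an unadjusted p under 0.05; 0.237% of all genes called). The smallest p-values were those of Mrpl11 (0.24, adjusted p = 0.314) and Mrpl51 (0.21, adjusted p = 0.317) against Con, and those of Mrpl41 (0.29, adjusted p = 0.177) and Mrpl51 (0.18, adjusted p = 0.307) against NCAC. The larger count in CAC than in Con thus goes with no member whose change differed between the arms past the threshold.

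The rise with time went with length too. In CAC 17 of the 26 shortest, 9 of the 25 of middle length and 5 of the 26 longest members rose, and Spearman's rho between length and the change was -0.59. After the correction for GC content and length the same counts were 6, 7 and 12, so 25 members rose in all and 0 fell. In NCAC the corrected count was 8 and in Con 0. The count in CAC was 16 without CAC replicate 2 of 2 weeks. In NCAC it was 0 without replicate 2 of 2 weeks, 8 without replicate 2 of 8 weeks and 10 without replicate 1 or 5 of 8 weeks, and 0 with only the 2 groups fitted. In Con it was 0 without replicate 1 or 2 of 2 weeks, 1 without replicate 3 or 5 of 2 weeks or any 1 library of 8 weeks, 10 without replicate 4 of 2 weeks and 13 with only the 2 groups fitted (11 higher, 2 lower).

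The mean log2 level of the members per library put these changes on 1 scale. Over all 77 it was 4.81 ± 0.11 in CAC, 4.90 ± 0.10 in NCAC and 5.01 ± 0.10 in Con at 2 weeks, and 5.03 ± 0.04 in CAC, 5.06 ± 0.05 in NCAC and 5.10 ± 0.01 in Con at 8 weeks (SD between libraries). In the 26 shortest members it was 5.03 ± 0.24 in CAC and 5.43 ± 0.19 in Con at 2 weeks. In the 26 longest it was 4.27 ± 0.03 in CAC and 4.34 ± 0.04 in Con. No test was run on these means.

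**Figure D5:**
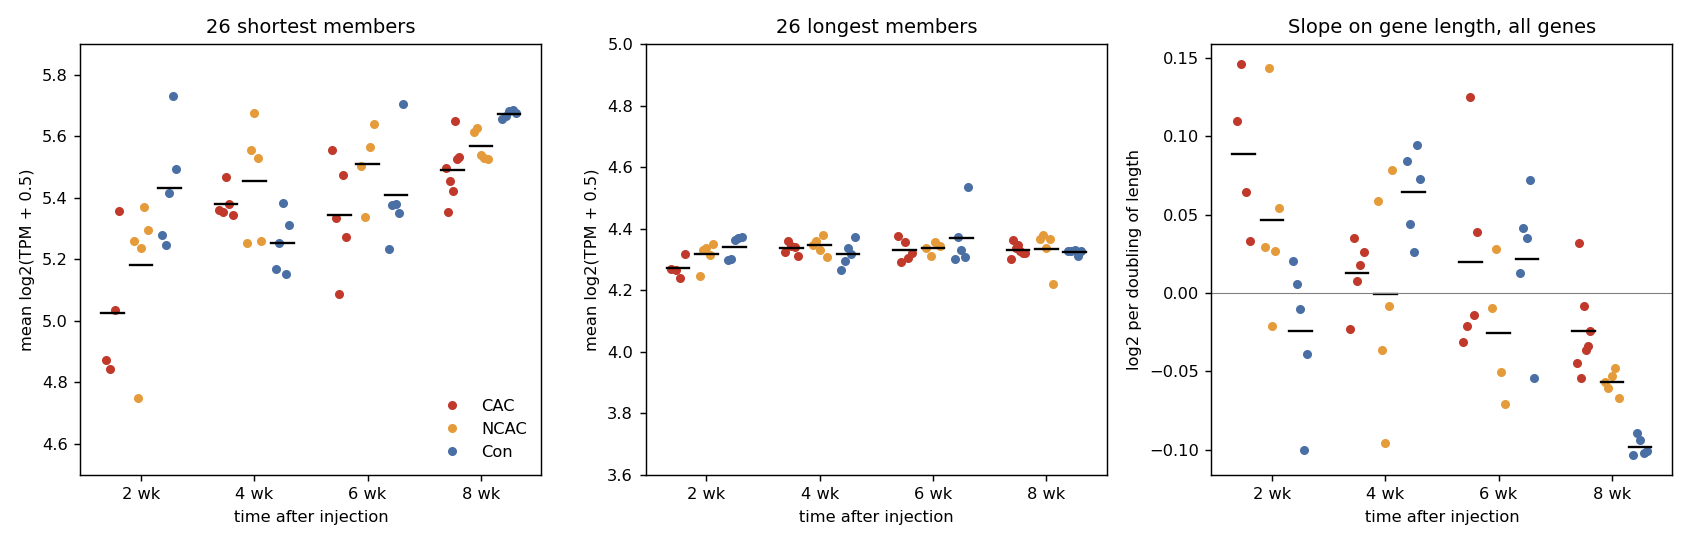
Mean log2(TPM + 0.5) per library of the 26 shortest members (left) and the 26 longest members (middle, axis of the same span), and the slope of all genes on length relative to the mean of all libraries (right), by time and arm, with group means as lines. The shortest members spread from 4.75 to 5.73 at 2 weeks, while the longest keep within 4.24 to 4.37 there.

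By subunit, calls fell in both, counted without the correction for GC content and length. At 2 weeks 6 of 50 large and 6 of 26 small subunit genes were lower in CAC than in Con, against 1.98% of all genes. The remaining call was Mrps36. Over the mean of the 4 times 9 of 50 large subunit genes were lower and 0 higher, and 3 of 26 small subunit genes were lower and 2 higher. The shares of all genes were 4.95% lower and 14.9% higher. Within CAC 20 of 50 large and 11 of 26 small subunit genes were higher at 8 than at 2 weeks, against 10.8% of all genes. Of members with a bacterial homolog 7 of 48 were lower in CAC than in Con at 2 weeks, and of those without 5 of 28.

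Exon overlap limits some of these values. Exons of 19 members overlap with a gene of at least 1 TPM, 17 of them with a gene on the opposite strand and 3 with a gene on the same strand (Mrps24, Mrps34 and Mrps6), 1 member having both. Whether reads were counted by strand is not given in the sources used here, so the levels of these members may hold reads of the neighbour. At 2 weeks Ndufs6, which overlaps with Mrpl36, differed by -0.74 between CAC and Con (adjusted p = 0.0312), and Nme3, which overlaps with Mrps34, by -0.76 (adjusted p = 0.0293). Mapk8ip3, which overlaps with Mrps34 on the opposite strand, differed by 0.16 (adjusted p = 0.154).

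Genes of the same pathway moved as follows between CAC and Con. Counts for these lists, here and in the next paragraph, are without the correction for GC content and length. These lists were also refitted with that correction, and those counts are not given here. How far gene length enters the counts was not tested. Of all 15608 tested genes, 268 were higher and 309 lower at 2 weeks. At 8 weeks 11.3% were higher and 3.2% lower, and over the 4 times 14.9% were higher and 4.95% lower. Of 5 mitoribosome proteins with other symbols, Chchd1 was lower at 2 weeks (52.2 ± 7.41 TPM in CAC, 72.9 ± 9.41 TPM in Con; -0.48, adjusted p = 0.0351), and none was called at 8 weeks or over the 4 times. Of 11 mitochondrial translation factors none was called at 2 weeks and 2 were higher at 8 weeks: Guf1, a back-translocating GTPase (28.9 ± 4.81 TPM in CAC, 22.8 ± 1.18 TPM in Con; 0.32 ± 0.09, adjusted p = 0.0187), and Gfm2, which splits the ribosome for recycling (13.2 TPM in CAC, 11.8 TPM in Con; 0.15, adjusted p = 0.0205). Over the 4 times 2 of the 11 were higher, again Guf1 and Gfm2, and 2 lower, among them the ribosome recycling factor Mrrf (16.4 TPM in CAC, 18.2 TPM in Con; -0.14, adjusted p = 0.0095). Of 22 tested assembly factors 1 was higher at 2 weeks (the helicase Dhx30, 0.20, adjusted p = 0.0319) and 3 at 8 weeks, led by the pseudouridine synthase Trub2 (0.21, adjusted p = 0.0084). The count at 8 weeks lies near the 11.3% of all genes higher then. Over the 4 times 2 of the 22 were higher, Dhx30 and Trub2 (0.12 each), and 2 lower, among them Fastkd2 (-0.12, adjusted p = 0.0245). Of 22 mitochondrial aminoacyl-tRNA synthetases none was called at 2 or 8 weeks, and 4 were higher over the 4 times, Rars2 by 0.15 among them, near the 14.9% of all genes higher in that contrast.

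Of 10 genes of mitochondrial DNA transcription and RNA stability, Slirp was lower at 2 weeks (6.90 ± 2.06 TPM in CAC, 12.3 ± 2.97 TPM in Con; -0.81 ± 0.20, adjusted p = 0.0264) and at 8 weeks (11.05 ± 2.34 TPM in CAC, 15.8 ± 1.16 TPM in Con; -0.53, adjusted p = 0.0329). Its binding partner Lrpprc, with which it stabilises mitochondrial messages, was higher at 8 weeks (35.9 ± 1.55 TPM in CAC, 30.8 ± 2.88 TPM in Con; 0.22, adjusted p = 0.00901). Tfb2m of the same list was also higher then, with 28.1 TPM in CAC and 23.0 TPM in Con (0.31, adjusted p = 0.0401). Over the 4 times Slirp was lower (-0.32, adjusted p = 0.0117). Tefm (0.19, adjusted p = 0.00122) and Lrpprc (0.09, adjusted p = 0.0361) were higher in that contrast. Of all tested genes, 11.3% were higher at 8 weeks and 14.9% over the 4 times. Of the 13 protein genes of the mitochondrial genome 1 was lower at 2 weeks (mt-Nd3, -1.02, adjusted p = 0.0308) and 2 at 8 weeks (mt-Nd6, -0.83, and mt-Nd4l, -1.08), and 3 were lower over the 4 times. Of 9 regulators of mitochondrial biogenesis none was called at either time, and Myc was higher over the 4 times (4.03 TPM in CAC, 3.22 TPM in Con; 0.26 ± 0.07, adjusted p = 0.00592). Of 9 mitochondrial stress genes 1 was lower at 2 weeks, the chaperonin subunit Hspe1 (50.7 ± 6.54 TPM in CAC, 73.4 ± 10.1 TPM in Con; -0.53, adjusted p = 0.02), and none was called at 8 weeks. Over the 4 times 2 of these were higher, the protease Lonp1 (0.09, adjusted p = 0.0187) and the chaperone Hspa9 (0.07, adjusted p = 0.0422), and none lower.

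Cytosolic ribosomal protein genes and nuclear genes of oxidative phosphorylation had medians of the same sign as the members at 2 weeks and with time. Of 80 cytosolic ribosomal protein genes 26 were lower and 0 higher in CAC than in Con at 2 weeks (median -0.346), and of 79 nuclear oxidative phosphorylation genes 31 were lower and 0 higher (median -0.462), beside 13 of 77 members (median -0.128). After the correction for GC content and length these counts were 13 lower in the first family, and 9 lower and 1 higher in the second. Within CAC 51 of the 80 and 56 of the 79 were higher at 8 than at 2 weeks and none was lower, with medians of 0.366 and 0.491, beside 0.158 for the members. Uqcrq, a subunit of complex III, averaged 61.8 ± 12.9 TPM at 8 weeks and 19.0 ± 14.0 TPM at 2 weeks in CAC (1.91 ± 0.32, adjusted p = 4.35e-05). Rpl36, of the cytosolic large subunit, averaged 282 ± 60.6 TPM at 8 weeks and 105 ± 65.7 TPM at 2 weeks (1.60 ± 0.30, adjusted p = 0.00011). At 8 weeks 7 cytosolic ribosomal protein genes were higher and 2 lower in CAC than in Con, and 7 oxidative phosphorylation genes were higher and 8 lower, beside 11.3% of all genes higher and 3.2% lower. Ndufv1, which carries the flavin of complex I, averaged 197 ± 5.26 TPM in CAC and 173 ± 5.17 TPM in Con at 8 weeks (0.19 ± 0.05, adjusted p = 0.00675), and Rpl10 averaged 87.3 ± 8.19 TPM in CAC and 60.2 ± 10.7 TPM in Con (0.54 ± 0.09, adjusted p = 0.000305).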

How the data were processed

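The authors deposited 1 table of TPM per gene symbol for the 60 hippocampus libraries; per the labels' protocols, Trizol-extracted RNA went into TruSeq stranded mRNA libraries for Illumina NovaSeq sequencing, and per the submitters' processing notes the build was mm10. Aligner, annotation and strand handling: not given in the sources used here. Low TPM values were whole multiples of 1 read for 24227 of 24227 genes (100.0%, tolerance 0.02 reads), which gave 32388193 to 42046753 reads per library.

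Genes with at least 1 TPM in at least 4 libraries (15608) entered 1 model of log2(TPM + 0.5) with the 12 group means (limma 3.58.1, R 4.3.3), empirical Bayes with trend and Benjamini-Hochberg adjustment over all tested genes at 0.05. Fold changes on this scale understate the change of low genes. Alternatives were pseudocounts of 0.1 and 1, no filter, a stricter filter, median-of-ratios scaling, correction for GC content and length, only the groups compared, the replicate number as a block, voom on the recovered reads, leaving out libraries rich in striatal or blood markers, the choroid plexus level as a covariate (chosen after seeing the data), and leaving out each library. The fit was tested on simulated data. GC content and exon overlaps came from GENCODE M21 (GRCm38), matched for 15035 of the tested genes. Named per contrast were the called members with the largest differences (up to 6 in each direction) or, with none called, up to 2 with the smallest p; over the table, the 5 highest and 5 lowest levels, the 3 largest and smallest SDs and the 6 smallest F test p; per pathway list, up to 3 with the smallest p. A member named in 1 contrast may be given in others. The members and lists were chosen with earlier results of these data known.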

Additional observations from a re-analysis of the deposited data

Results flagged for a closer look

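Within groups of 4 to 10 libraries, a library whose gap to its nearest neighbour exceeded Dixon's 95% critical value was looked for in the mean level of the members and in 14 named members, 180 groups in all; 12 were found, and chance gives about 1 in 20. Con replicate 5 of 6 weeks stood highest in its group in the mean log2 level of the members (5.24), in Mrpl52 (39.6 TPM), in Mrps24 (20.3 TPM) and in Mrps34 (31.9 TPM). Mrpl52 was also far above the rest in Con replicate 4 of 2 weeks (48.0 TPM), and Mrpl34 in CAC replicate 5 of 8 weeks (36.1 TPM). Mrpl36 stood high in CAC replicate 5 of 2 weeks (47.8 TPM) and low in CAC replicate 4 of 4 weeks (36.2 TPM). Mrps36 stood high in CAC replicate 3 of 4 weeks (29.4 TPM). In NCAC, Mrps24 stood low in replicate 2 of 2 weeks (6.38 TPM), and at 6 weeks Mrpl14 stood apart in replicate 1 (21.4 TPM) and Mrps21 in replicate 2 (40.1 TPM).

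For 4 members every CAC library lay below the Con mean at 2 weeks and every CAC library above it at 4 weeks. These 4 also had the smallest adjusted p-values of all members in the F test among groups. They therefore do not stand for the members as a set. The difference between the times was not tested, and no share over all members or over all genes is given. The slope of all genes on length changed order too. It was 0.033 to 0.146 in CAC and -0.100 to 0.021 in Con at 2 weeks. At 4 weeks this slope was -0.023 to 0.035 in CAC and 0.026 to 0.095 in Con. Whether the change of these members goes with the slope was not tested. At 2 weeks the log2 differences were -1.65 for Mrpl52, -0.72 for Mrps21, -0.53 for Mrps24 and -0.42 for Mrps34. At 4 weeks they were 0.48, 0.28, 0.27 and 0.37 in the same order, none of them past the threshold (adjusted p = 0.526, 0.394, 0.422 and 0.0873).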

How the results depend on the processing

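Counts of called members are given for the contrasts whose count moved by more than 1.5 times. CAC against Con at 2 weeks (13) gave 2 after the GC and length correction, 6 with no filter, 0 with only the groups compared and 0 without the rich libraries; at 4 weeks (0) it gave 3 after that correction and 1 with the stricter filter; at 8 weeks (6) it gave 10 after that correction and 13 with only the groups compared; over the 4 times (15) it gave 7 without the rich libraries. CAC against NCAC at 6 weeks (1) gave 4 after the correction, 2 under median-of-ratios scaling, 2 with voom, 3 without the rich libraries and 0 with only the groups compared. For 8 against 2 weeks, NCAC (16) gave 8 after the correction, 10 with no filter and 0 with only the groups compared, and Con (2) gave 0, 1 and 13, with 9 for voom, 1 without the rich libraries and 1 with the choroid plexus covariate, chosen after seeing the data. With a library left out, CAC against Con gave 0 to 21 at 2 weeks, 0 to 5 at 4 weeks, 0 to 1 at 6 weeks and 0 to 7 at 8 weeks, CAC against NCAC gave 0 to 3 at 6 weeks, and 8 against 2 weeks gave 16 to 37 in CAC, 0 to 18 in NCAC and 0 to 10 in Con.

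The median correlation of deviations was -0.008 over 56 same-number pairs (-0.285 to 0.345). It was 0 over 244 other-number pairs (-0.456 to 0.495), so the replicate numbers gave no sign of pairing the samples. The replicate block gave 8 for CAC against Con at 2 weeks, 0 at 8 weeks and 2 for CAC against NCAC at 6 weeks. The replicate block with GC and length correction gave 2, 4 and 2 for CAC against Con at 2, 4 and 8 weeks, 5 for CAC against NCAC at 6 weeks, and 17, 9 and 0 for 8 against 2 weeks in CAC, NCAC and Con. Of 2150 values of named members, 1872 kept direction and side of the threshold, 266 lost the call, 10 gained it and 2 reversed: Mrps17 in CAC at 8 against 2 weeks, 0.022 after the correction and 0.0016 with the block added. The cause of these moves was not tested. Depth limits mainly Mrpl34 and Mrpl52.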
